A study of Homo sapiens with 6 samples.

Results

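The genes described here make heme or break it down. They are the 9 rows of the gene count table named HMOX1, HMOX2, BLVRA, BLVRB, ALAS1, ALAD, UROD, CPOX and FECH, out of 58735 genes in all, and they were taken by gene name, with earlier results of these data known. RNA was sequenced from T47D, a widely used human cell line derived from a luminal breast cancer. The 3 exposed libraries (titles T47D_CQ) and the 3 control libraries (titles T47D_CK) are described as biological replicates, and nothing says that they came from separate cultures, so p-values measure the spread between these samples alone. No genetic change or drug is named for either group. The design text calls the CQ condition only an experimental treatment. That it was fine airborne particulate matter rests on the title of the series and on a protocol, the same for both groups, in which RNA was taken after 48 h of exposure; no dose is stated.

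Heme is an iron-bearing porphyrin that serves as the working group of cytochromes P450, catalase and the respiratory chain. Its synthesis starts in mitochondria with aminolevulinate synthase, passes through the cytosol and ends in mitochondria, where ferrochelatase inserts iron. Heme oxygenase opens the ring into biliverdin, iron and carbon monoxide, and biliverdin reductase turns biliverdin into bilirubin. HMOX1 is the stress-induced heme oxygenase, held down by the repressor BACH1 and turned on by NRF2 (gene NFE2L2) with small MAF partners, whereas HMOX2 is made constitutively in most tissues.

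In exposed cells HMOX1 was 8.51-fold higher, ferrochelatase (FECH) 2.60-fold, BLVRB 1.86-fold and ALAD 1.28-fold higher, while CPOX fell. HMOX2, BLVRA, ALAS1 and UROD did not pass the test. All 9 genes passed the filter on low counts. With a threshold of 0.05 on the Benjamini-Hochberg adjusted p over all 17337 genes tested, 4 of the 9 rose and 1 fell, where 43.9% of all genes tested passed, 21.8% higher and 22.1% lower in exposed cells. Groups did not overlap for 6 of the 9, against 51.9% of all genes tested. The median log2 fold change was 0.18 over the 9 genes and -0.02 over all genes tested. The share that passed was thus near that of the whole table, and the result lies in which genes moved and how far.

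**Figure D1:**
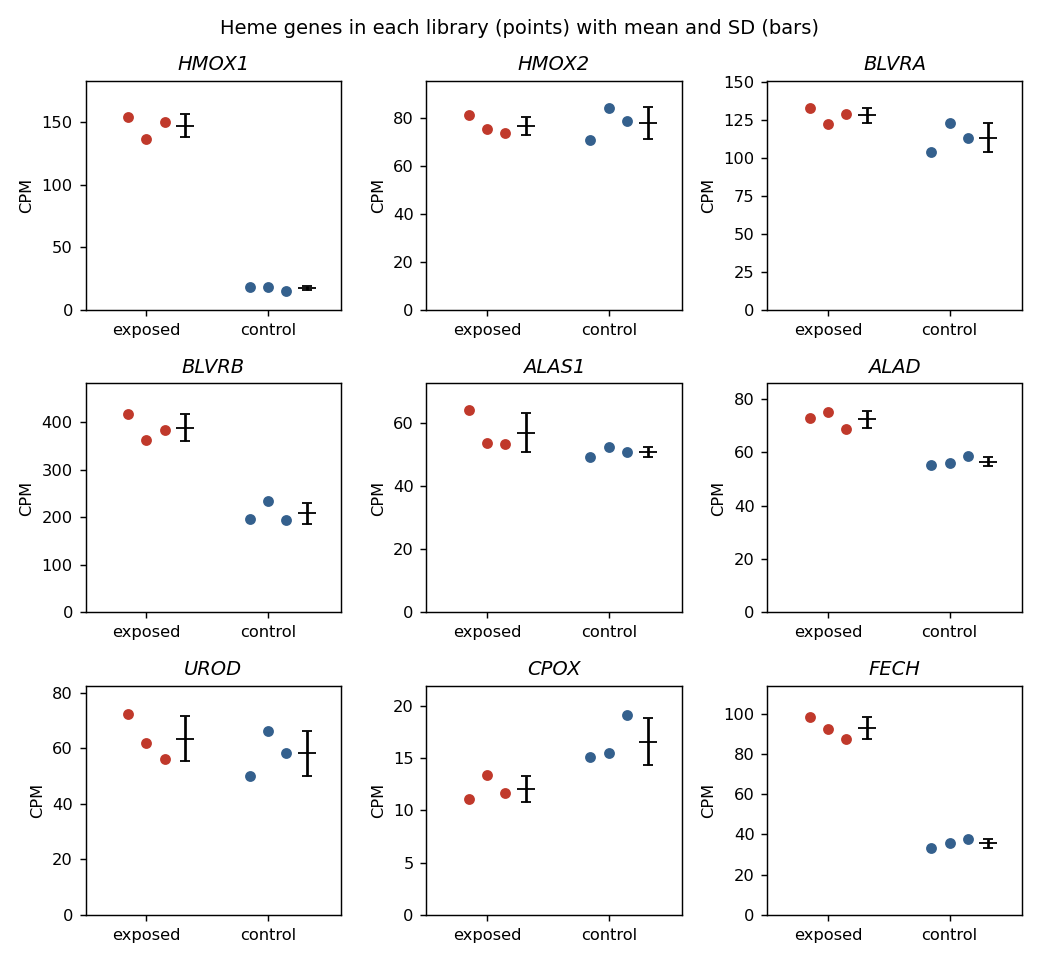
Counts scaled to library size (CPM) of the 9 heme genes, exposed left of control, with 1 point per library and the mean and SD of 3 libraries beside them; each vertical axis starts at 0. HMOX1 and FECH stand far apart between the groups, and HMOX2, at 76.8 CPM in exposed and 77.9 CPM in control cells, does not.

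Total counts ran from 30970218 to 36878525 per library, and the lowest count of any of the 9 genes in a library was 377 (CPOX). Pearson's r across genes was 0.988 to 0.990 within groups and 0.967 to 0.972 between them. Of 7 luminal identity genes, ESR1, PGR, KRT8, KRT18 and KRT19 fell and GATA3 and EPCAM did not pass; their summed level was 7478 to 9504 CPM in exposed and 18520 to 20440 CPM in control libraries, and its part in the results below was not tested. None of 8 erythroid markers passed the low-count filter, with sums of 0.177 to 0.305 CPM in exposed and 0.0268 to 0.317 CPM in control libraries, and HBG1 at 0 counts throughout. Of 7 macrophage markers, 2 could be tested and neither was called, with sums of 1.65 to 1.74 CPM in exposed and 1.40 to 2.33 CPM in control libraries, and CD163 at 0 counts in exposed libraries. In bulk RNA, a change in the share of cells expressing a gene and a change in RNA per cell cannot be told apart.

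HMOX1 (ENSG00000100292, GRCh38 chromosome 22, 35380361 to 35394214, plus strand) had 5234, 4236 and 5432 counts in exposed replicates 1 to 3, against 674, 635 and 566 in control replicates 1 to 3. Scaled to library size these were 154, 137 and 151 CPM in exposed cells, against 18.1, 18.3 and 15.5 CPM in controls. Every exposed library was above every control library by a wide margin. The means were 147 ± 9.13 CPM in exposed and 17.3 ± 1.53 CPM in control cells (SD, n = 3 each), a log2 fold change of 3.09 ± 0.09 (SE) and an adjusted p of 1.1e-22 in edgeR's quasi-likelihood test. By log2 fold change HMOX1 ranked 21 among the 17337 genes tested.

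HMOX2 (ENSG00000103415, chromosome 16, 4474690 to 4510347, plus strand) had 81.2, 75.6 and 73.7 CPM in exposed libraries and 70.9, 84.2 and 78.7 CPM in control libraries. The groups overlapped, and the log2 fold change was -0.02 with a 95% interval of -0.18 to 0.14 (adjusted p = 0.86). That interval leaves room only for changes much smaller than that of HMOX1. HMOX2 shares exonic positions with NMRAL1 on the opposite strand, which was at -0.15 (log2 fold change) and did not pass, and without a stated strand setting reads of the pair may have been mixed.

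The order of the heme oxygenases therefore differed between the groups. Per kilobase of gene length, HMOX1 was at 61.2 ± 3.80 and HMOX2 at 20.3 ± 1.03 RPKM in exposed cells, against 7.19 ± 0.636 and 20.6 ± 1.76 RPKM in control cells (SD, n = 3 each). HMOX1 made up 75.0%, 74.0% and 76.3% of the RNA of the pair in exposed replicates 1 to 3, against 28.7%, 25.5% and 23.7% in control replicates 1 to 3. The mean share was 75.1% ± 1.15 in exposed and 26.0% ± 2.5 in control cells, 49.1 percentage points apart (two-sided exact permutation test, p = 0.1, the smallest that 3 against 3 can give). Thus HMOX2 was the more abundant form in each control library and HMOX1 in each exposed library.

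Biliverdin reductase is encoded by BLVRA, the main adult form, and BLVRB, which also acts as a flavin reductase. BLVRB (ENSG00000090013, chromosome 19, 40447765 to 40465840, minus strand) had 418, 363 and 384 CPM in exposed libraries and 196, 234 and 195 CPM in control libraries. The groups stood apart, and BLVRB rose by 0.90 ± 0.08 on the log2 scale (SE; edgeR adjusted p = 1.0e-10). BLVRA (ENSG00000106605, chromosome 7, 43758680 to 43807342, plus strand) had 133, 123 and 129 CPM in exposed libraries and 104, 123 and 113 CPM in control libraries.

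The BLVRA values of exposed replicate 2 and control replicate 2 were nearly equal, so the groups overlapped. Its log2 fold change was 0.18 (95% interval 0.02 to 0.33) and it did not pass after adjustment over all genes (edgeR adjusted p = 0.065). Without control replicate 2 it passed, at 0.24 (adjusted p = 0.0062). BLVRB made up 76.6% ± 0.628 of the summed BLVRA and BLVRB RNA per length in exposed and 66.4% ± 1.22 in control cells (SD, n = 3 each), 10.2 percentage points apart (two-sided exact permutation test, p = 0.1, the smallest possible). This is a share of RNA alone, and the reduction of biliverdin by either enzyme was not measured.

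**Figure D2:**
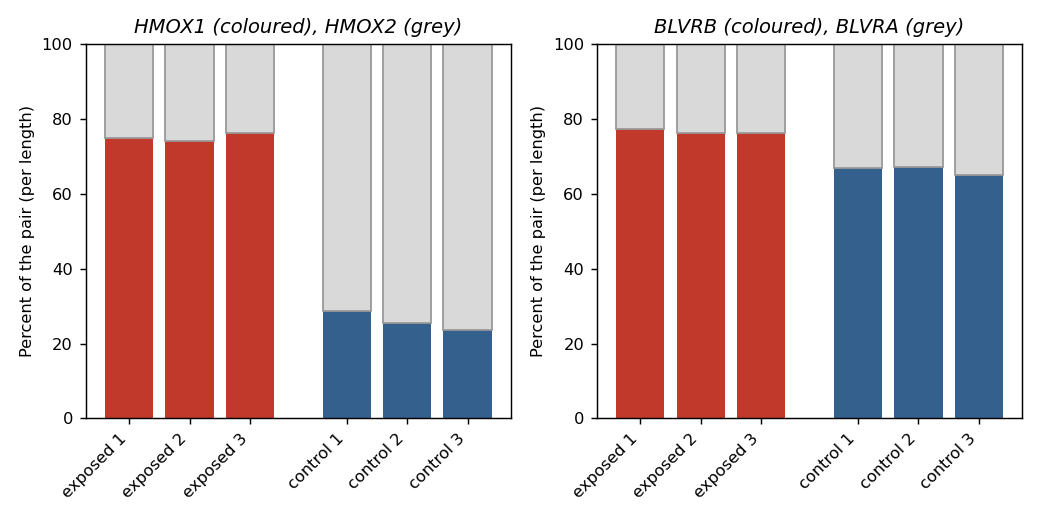
Share of each pair's RNA per kilobase in every library, exposed left of control; colour marks HMOX1 (left panel) and BLVRB (right panel), grey the other form. HMOX1 held 74.0% to 76.3% of its pair in exposed and 23.7% to 28.7% in control libraries.

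Among the genes of heme synthesis the entry step did not pass. ALAS1 (ENSG00000023330, chromosome 3, 52198086 to 52214327, plus strand) encodes the rate-limiting aminolevulinate synthase of most tissues. It had 64.0, 53.5 and 53.4 CPM in exposed libraries and 49.3, 52.4 and 50.7 CPM in control libraries. Exposed replicate 1 lay above the rest, and the other exposed libraries stood just over the highest control, so the groups did not overlap. The log2 fold change was 0.16 (95% interval -0.01 to 0.34; adjusted p = 0.12), and it was 0.08 without exposed replicate 1. ALAS2, the erythroid form, had 0, 7 and 6 counts in exposed libraries and 1, 6 and 3 in control libraries, too few to test.

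ALAD, which joins molecules of aminolevulinate into a pyrrole (ENSG00000148218, chromosome 9, 113386317 to 113401333, minus strand), had 72.8, 75.2 and 68.8 CPM in exposed libraries and 55.3, 55.9 and 58.4 CPM in control libraries. All exposed values were higher, by 0.35 ± 0.08 on the log2 scale (SE; edgeR adjusted p = 4.4e-04). UROS, which closes the porphyrin ring, fell to 33.2 ± 0.417 CPM in exposed cells, against 45.6 ± 4.66 CPM in control cells (SD, n = 3 each; log2 fold change -0.46 ± 0.09, adjusted p = 1.1e-04 in edgeR's test).

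UROD (ENSG00000126088, chromosome 1, 45012147 to 45015575, plus strand) trims the side chains of the ring. It had 72.4, 61.8 and 56.2 CPM in exposed libraries and 50.1, 66.3 and 58.2 CPM in control libraries. The spread within each group exceeded the distance between them, and the log2 fold change was 0.13 (95% interval -0.07 to 0.33; adjusted p = 0.31). Without control replicate 2 it was 0.23 and passed narrowly (adjusted p = 0.043).

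CPOX (ENSG00000080819, chromosome 3, 98579446 to 98593723, minus strand) carries out the next step, an oxidation, in the mitochondrial intermembrane space. It had 11.1, 13.4 and 11.7 CPM in exposed libraries and 15.1, 15.5 and 19.2 CPM in control libraries. All exposed values were lower, and the log2 fold change was -0.46 ± 0.12 (SE; edgeR adjusted p = 0.0021). CPOX shares exonic positions with AC021660.3 on the same strand, which had 0 counts in every library; whether reads common to both were dropped is not stated. PPOX, which makes protoporphyrin, was at -0.04 ± 0.09 (log2 fold change, SE) and did not pass. It overlaps B4GALT3 on the opposite strand, which rose by 0.65 on the log2 scale.

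FECH (ENSG00000066926, chromosome 18, 57548283 to 57586772, minus strand), whose product inserts iron into protoporphyrin, had 98.4, 92.5 and 87.5 CPM in exposed libraries and 33.3, 35.7 and 38.0 CPM in control libraries. All exposed values lay far above all control values. The log2 fold change was 1.38 ± 0.08 (SE; edgeR adjusted p = 7.5e-15). The pseudogene FECHP1 had 0 counts in every library. Over the pathway, of 7 synthesis enzymes tested 2 rose (ALAD, FECH), 2 fell (UROS, CPOX) and 3 did not pass, with a median log2 fold change of 0.13. The shares over all genes tested were 21.8% higher and 22.1% lower.

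**Figure D3:**
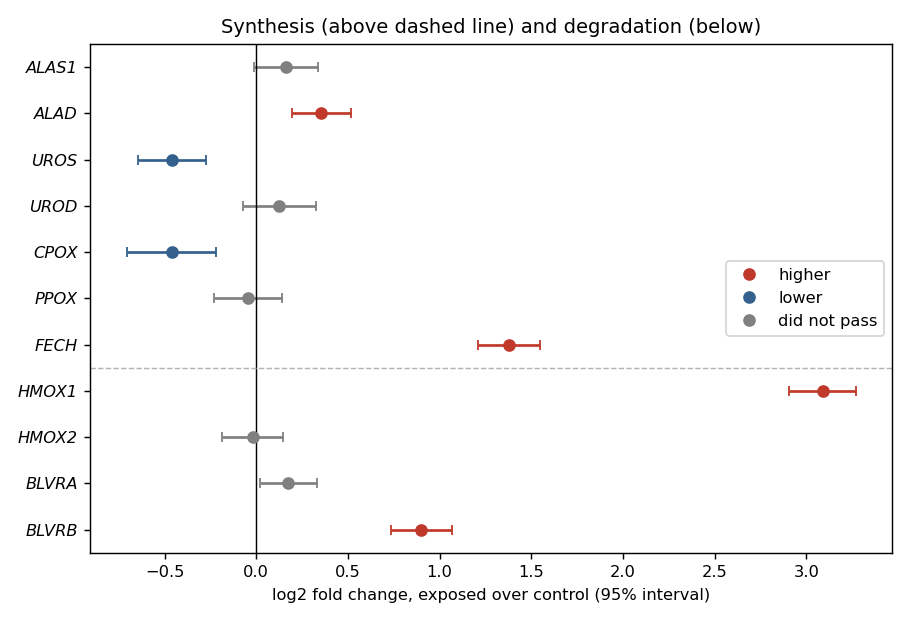
Log2 fold change, exposed over control, with 95% intervals from edgeR's fit, for the synthesis genes from the entry step downward and, under the dashed line, the degradation genes. HMOX1 at 3.09 and FECH at 1.38 lie farthest to the right, and UROS and CPOX, both at -0.46, lie left of zero.

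The upstream sequences of FECH and BLVRB are shown because, HMOX1 aside, these genes rose most of the 9, and FECH held a match to each element core searched. Of the 9 genes, 8 had a promoter in the RefSeq table (GRCh38.p14); HMOX1 had no entry. The 250 bases before each listed start were searched on both strands for TGACNNNGC, the core of the antioxidant response element bound by NRF2, and TNGCGTG, the core of the element bound by the aryl hydrocarbon receptor. All printed sequences are of the minus strand, read 5′ to 3′, with matches in capitals, from chr18:57586773-57586952 and chr18:57586721-57586750 for FECH and from chr19:40465841-40465995 for BLVRB.
FECH, upstream of the annotated gene: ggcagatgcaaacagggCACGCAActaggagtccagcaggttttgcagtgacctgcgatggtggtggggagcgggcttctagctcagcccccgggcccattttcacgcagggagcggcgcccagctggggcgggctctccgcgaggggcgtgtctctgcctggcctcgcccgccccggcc
FECH, about the antioxidant element core: ccgggagggcGCGAGGTCAgggggctgggg
BLVRB, upstream of the annotated gene: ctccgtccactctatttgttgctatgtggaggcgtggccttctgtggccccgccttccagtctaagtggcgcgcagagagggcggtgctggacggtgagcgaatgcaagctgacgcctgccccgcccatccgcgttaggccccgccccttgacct

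The FECH window held the antioxidant core once, 38 to 30 bases before the RefSeq start and within the exon as GENCODE draws it, and the receptor core once, 233 to 227 bases before the start. Of the 8 genes only FECH held the first core, and FECH and ALAD held the second. BLVRB held neither, as searched, in its 250 bases. The shorter GCGTG, without the T that the search required, does occur in its printed sequence and, unmarked, in that of FECH. Among all 35116 promoter windows of that length 10.9% held the first core and 4.52% the second. These are matches of letters and do not show binding.

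Compared per kilobase, BLVRB was the most abundant of the 9 transcripts in both groups, at 229.9 ± 16.5 RPKM in exposed and 123 ± 13.1 RPKM in control cells, and CPOX the least, at 3.73 ± 0.373 RPKM in exposed and 5.13 ± 0.690 RPKM in control cells (SD, n = 3 each). In exposed cells BLVRA (70.3 RPKM) and HMOX1 (61.2 RPKM) followed, each apart from its neighbours. Then came ALAS1, UROD, FECH and HMOX2, between 20.3 and 22.5 RPKM with overlapping values, and ALAD at 14.5 RPKM. In control cells BLVRA (62.3 RPKM) was followed by HMOX2, ALAS1 and UROD, between 20.0 and 20.6 RPKM with overlapping values, and by ALAD at 11.3 RPKM. FECH and HMOX1, at 7.97 and 7.19 RPKM, overlapped each other above CPOX. The lengths merge every annotated exon, so a gene with long unused exons is set too low on this scale.

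Most genes for factors that control HMOX1 were higher too, among them activators and the repressor BACH1. Of 9 such genes 8 rose and 1, the low-abundance repressor BACH2 (0.69, adjusted p = 0.33), did not pass, with a median log2 fold change of 0.79. This list and those below were drawn up with earlier results of these data known. Over all genes tested, 21.8% were higher and 22.1% lower in exposed cells. The small MAF genes MAFF and MAFG rose 4.01-fold and 3.37-fold. NFE2L2 was at 45.9 ± 3.38 CPM in exposed and 27.3 ± 2.82 CPM in control cells, and BACH1 at 35.8 ± 3.41 CPM in exposed and 20.7 ± 2.52 CPM in control cells (SD, n = 3 each). KEAP1, which marks NRF2 for degradation, rose by 0.81, and NFE2L1 by 1.06. HSF1, at 0.20 (adjusted p = 0.036), lost its call without exposed replicate 1, control replicate 1 or control replicate 3 (adjusted p = 0.13, 0.16 and 0.17).

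All 9 NRF2 target genes of the list rose, with a median log2 fold change of 1.80; that list was drawn up knowing that such genes rose here. GCLM, a subunit of the enzyme that begins glutathione synthesis, was at 2.45. The ferritin chains FTH1 and FTL, which store the iron that heme oxygenase releases, were at 1.72 and 1.80; both have processed pseudogenes with which reads could be shared. The 5 expressed protein-coding genes whose profile over the 6 libraries was nearest to that of HMOX1 were MT1X, UNC5B, AKR1C3, UCHL1 and AKR1C1. Their root mean square distances in centred log2 CPM were 0.0788, 0.101, 0.128, 0.154 and 0.215, a measure set mainly by the size of the difference between the groups. MT1X, AKR1C1 and AKR1C3 belong to families of near-identical genes.

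Heme oxygenase takes electrons from cytochrome P450 reductase (POR), and biliverdin reductase uses NADPH or NADH. All 3 tested genes listed for this supply rose: POR by 0.51, and the NADPH-producing enzymes PGD and IDH1 by 1.05 and 0.74 on the log2 scale. The share of all genes tested that rose was 21.8%. ME1, also listed, had too few counts to test. Of the genes that control ALAS1, the coactivator PPARGC1A rose to 9.02 ± 1.28 CPM in exposed cells, against 2.40 ± 0.692 CPM in control cells (SD, n = 3 each). LONP1, the mitochondrial protease that degrades ALAS1 protein, rose by 0.77, and NRF1 by 0.31, a call lost without control replicate 3 (adjusted p = 0.096). CLPX, which helps load the cofactor of the enzyme, was at 0.16 and did not pass.

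Of 17 genes for heme and porphyrin transport or binding, 7 rose, 3 fell and 7 did not pass, with a median log2 fold change of 0.16. The shares over all genes tested were 21.8% higher and 22.1% lower. SLC48A1, which carries heme from lysosomes into the cytosol, had 131, 117 and 113 CPM in exposed libraries and 42.3, 49.7 and 43.4 CPM in control libraries, a rise of 1.41 ± 0.08 on the log2 scale (SE; edgeR adjusted p = 6.0e-15). The low-abundance porphyrin transporters ABCG2 and ABCB6 were at 1.73 ± 0.32 and 1.41 ± 0.34. The mitochondrial iron importers SLC25A28 and SLC25A37 rose by 0.80 and 0.50.

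The plasma membrane heme exporter FLVCR1 fell by 0.43 and the folate and heme carrier SLC46A1 fell by 0.73 on the log2 scale. ABCB10, a mitochondrial transporter that supports heme synthesis, fell by 0.53. SLC25A38, the mitochondrial glycine carrier that feeds ALAS1, was at 0.08 (95% interval -0.08 to 0.24) and did not pass. The related FLVCR2 was at 0.34 (adjusted p = 0.061) and passed without exposed replicate 3 or control replicate 1 (adjusted p = 0.049 and 0.050).

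**Figure D4:**
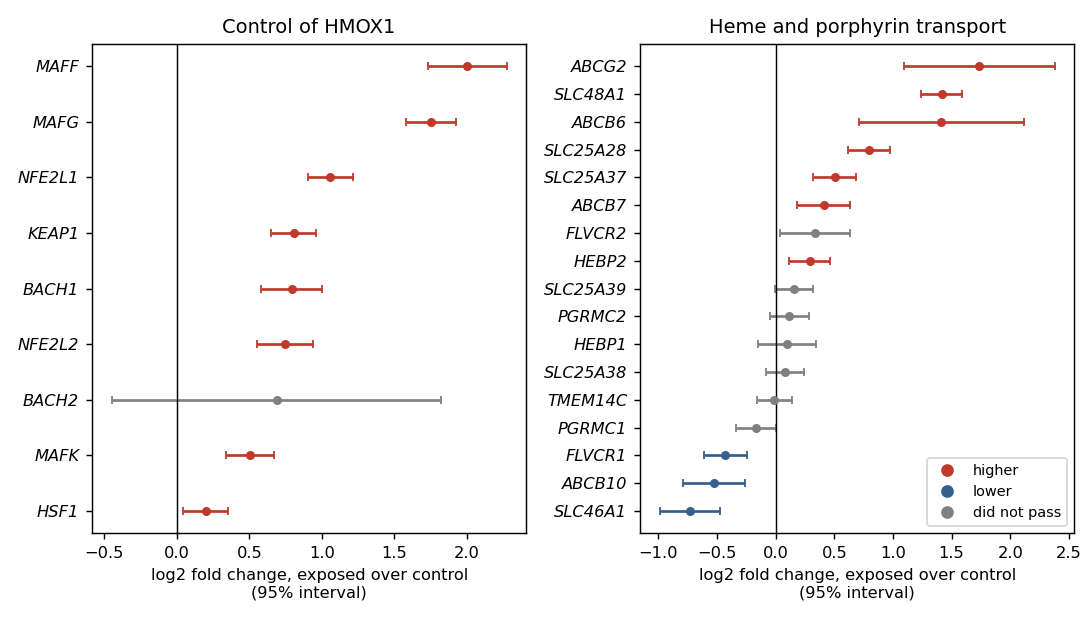
Log2 fold change, exposed over control, with 95% intervals for the tested genes of the list that controls HMOX1 (left) and of the heme and porphyrin transport list (right). MAFF and MAFG, 4.01-fold and 3.37-fold higher, lead the first list, and the second runs from ABCG2 at 1.73 to SLC46A1 at -0.73.

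Of 5 tested genes of iron-sulfur cluster supply, on which FECH depends, 1 rose and 2 fell. The shares over all genes tested were 21.8% higher and 22.1% lower. The scaffold ISCU rose by 0.62. The falls, of GLRX5 (-0.19) and FDXR (-0.20), were not firm: 0 of these genes fell with DESeq2, with size factors of its type, with no low-count filter, or without exposed replicate 2, exposed replicate 3 or control replicate 2, and 1 fell without exposed replicate 1 or control replicate 3. COX10, which begins the conversion of heme to heme A, rose by 0.81, and HCCS, which attaches heme to cytochrome c, by 0.32, while COX15, which completes heme A, was at -0.03 and did not pass (adjusted p = 0.77).

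Among heme-sensing proteins, the nuclear receptors NR1D1 and NR1D2 rose by 2.22 and 1.07, and DGCR8, a microRNA processing factor, fell by 0.90 on the log2 scale. NR1D1 overlaps a neighbouring gene on the opposite strand. EIF2AK1, the heme-regulated kinase, was at 0.07 (95% interval -0.08 to 0.22) and did not pass. Of 7 tested heme proteins 3 rose and 1 fell, against 21.8% higher and 22.1% lower over all genes tested. The cytochromes P450 CYP1A1 and CYP1B1 had 2122 ± 95.9 and 577 ± 47.3 CPM in exposed cells and 1.58 ± 0.329 and 96.3 ± 2.13 CPM in control cells (SD, n = 3 each). CYC1 rose by 0.49 and CYB5A fell by 0.36. Catalase (CAT) was at 0.195 and did not pass (adjusted p = 0.053). The count of heme proteins that rose was 4 with DESeq2, with size factors of its type, or without exposed replicate 2 or control replicate 3. Of 2 tested genes of bilirubin export, ABCC3 rose by 2.28 and ABCC2 was at 0.98 and did not pass (adjusted p = 0.065). ABCC2 passed without exposed replicate 1 or control replicate 1 (adjusted p = 0.0067 and 0.016), and with no low-count filter. UGT1A1, which conjugates bilirubin, had 0 counts in every library; it shares exons with the other UGT1A genes, so its reads could be uncounted.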

How the data were processed

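RNA was extracted with TRIzol, made into NEBNext Ultra libraries and read on an Illumina NovaSeq, per the labels' protocols. The authors deposited whole-number read counts per gene; the submitters' processing notes name the build GRCh38. No aligner, counter, annotation release or strand setting is stated in the labels or headers. All 58735 gene IDs had the coordinates, strand and merged exon length of GENCODE 29. The gene length in bases, another column deposited by the authors, was used for RPKM.

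The count test was edgeR 4.0.16 in R 4.3.3: filterByExpr (minimum count 10), TMM scaling and a robust quasi-likelihood fit of exposed against control over all 6 libraries. Benjamini-Hochberg adjustment ran over the 17337 genes kept, with a threshold of 0.05. The SE is the size of the log2 fold change over the square root of F, and 95% intervals use the degrees of freedom of the fit. CPM and RPKM use TMM-scaled library sizes. The method was also run on simulated data with far fewer changed genes than were called here, and no result rests on that run. Other settings tried were RLE scaling, filters both absent and stricter, DESeq2 1.42.0, limma-voom (limma 3.58.1), the replicate number as a block, each library left out, a minimum change of 1.5-fold, only protein-coding genes, and no genes of the mitochondrial genome.

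Groups came from the sample titles. The members and lists were chosen with earlier results of these data known. Genes named are all members and synthesis enzymes, called or heme-related genes of the lists, and the 5 genes nearest to HMOX1 among protein-coding genes of at least 1 CPM. Some genes of these pathways are not reported here. Libraries of the same group differed by more than sampling noise (chi-square per degree of freedom at least 7.11), so none was counted as a duplicate.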

Additional observations from a re-analysis of the deposited data

How the results depend on the processing

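The counts of heme genes that rose (4) and fell (1) were the same with DESeq2, with limma-voom and with the replicate number as a block. A test against a 1.5-fold change, which asks for more by construction, called 715 genes higher and 783 lower over the whole table and 0 of the 9 heme genes lower; ALAD (0.35) and CPOX (-0.46) lost their calls. Leaving out each library in turn, HMOX2 ran from -0.083 to 0.040, taking the other sign without exposed replicate 3 (0.028) or control replicate 2 (0.040), BLVRA from 0.117 to 0.238, ALAS1 from 0.078 to 0.229 without passing, and UROD from 0.026 to 0.231. PPOX ran from -0.112 to 0.023, with the other sign without exposed replicate 2 (0.023) or control replicate 2 (0.007), and COX15 from -0.076 to 0.010, with the other sign without control replicate 3. HMOX1 kept its call and direction under all 15 alternatives, from 3.02 to 3.15, as did FECH (1.33 to 1.44) and BLVRB (0.85 to 0.99). Without a library, the HMOX1 share differed between groups by 48.0 to 50.5 percentage points and the BLVRB share by 9.45 to 10.6. Deviations of same-numbered libraries were nearly uncorrelated (-0.074, -0.080 and 0.005), which with 3 libraries per group cannot show whether they shared a batch or culture. With the replicate block 3359 genes were higher and 3420 lower, against 3778 and 3832 without it. Among the named genes HSF1, GLRX5 and FDXR did not pass with the block (adjusted p = 0.082, 0.097 and 0.090 in edgeR's fit). Of 882 values for the other named genes under an alternative, 827 kept their direction and side of the threshold. ALAS2 had too few counts to be tested.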
